A study of Arabidopsis thaliana with 12 samples.

Results

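The line described here is MYB2-SRDX, an Arabidopsis thaliana transgenic line that expresses, from the viral 35S promoter, the transcription factor MYB2 joined to SRDX, a short peptide that represses transcription in plants. The labels name it a dominant negative line. Its roots were set against roots of Col, the wild type, which carries no transgene. Both groups came from 8-day-old seedlings raised on MS medium in darkness, with 3 RNA sequencing libraries per group. The line was described over every gene in the authors' deposited table of this comparison, 1045 genes of the 2424 distinct genes listed over the 3 tables of the series, and the 6 libraries of this comparison are among 12. The other lines of the series, MYB2-OE and LBD29-OE, overexpress MYB2 and the lateral root factor LBD29. The 35S promoter drives expression in most cell types and far above the natural level, and the labels do not say from how many independent transformants the material came. The labels do not say whether the 3 libraries of a group came from separate cultures. The p-values below therefore measure the spread between these libraries, and that spread may be technical.

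MYB2 is a DNA-binding protein of the plant MYB family, induced by dehydration and by the hormone abscisic acid. Fused to SRDX, a factor that normally activates its targets is expected to recruit corepressors to them, so such fusions are used to lower the targets of a factor and of its close relatives. In roots, abscisic acid acts on growth, branching and ion transport. The circadian clock, which is also built in part from MYB-like proteins, times many of the same outputs.

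The values were FPKM, read fragments scaled to transcript length and to the mapped total of the library, which the authors computed per library. The authors' deposited table listed only genes they had called, 553 higher and 492 lower in MYB2-SRDX, with an absolute log2 fold change of at least 1.00 and a Q-value of at most 0.000994. A gene outside the table has no value here, and FPKM do not carry the depth, which is unknown. A gene was taken to have risen or fallen in all 3 libraries when each MYB2-SRDX library differed at least 2-fold from the geometric mean of Col, computed on FPKM + 0.1, and lay outside the Col range. By that rule 142 genes rose (13.6% of those listed) and 231 fell (22.1%), 373 in all (35.7%). limma, a linear model with moderated variances, fitted to log2(FPKM + 0.1) of all 1045 genes, called 276 higher (26.4%) and 412 lower (39.4%) at a Benjamini-Hochberg adjusted p under 0.05, among them 139 of the 142 rises and 230 of the 231 falls. Every MYB2-SRDX library lay above every Col library in 345 genes (33%) and below every one in 437 (41.8%). These genes had already been selected by the authors on the same libraries, so none of these counts is independent of that selection. All differences below are on the log2(FPKM + 0.1) scale, which understates changes of weakly expressed genes.

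A MYB2-SRDX library stood apart from the other two. The library whose column ends in 1, called library 1, was the highest of the 3 in 606 of the 1045 genes, against 241 for library 2 and 262 for library 3, with ties counted for each. In 208 genes (19.9%) library 1 alone was at least 2-fold above the Col mean while both others were not, and the group mean was at least 2-fold higher. Only 5 genes (0.478%) were high in library 2 alone and 5 (0.478%) in library 3 alone, and 21 (2.01%) were low in library 1 alone. limma called 21 of the 208 genes high in library 1 only. Without library 1, 244 genes (23.3%) rose and 343 (32.8%) fell in both remaining libraries. The results below therefore begin with genes that changed in all 3 libraries.

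**Figure D1:**
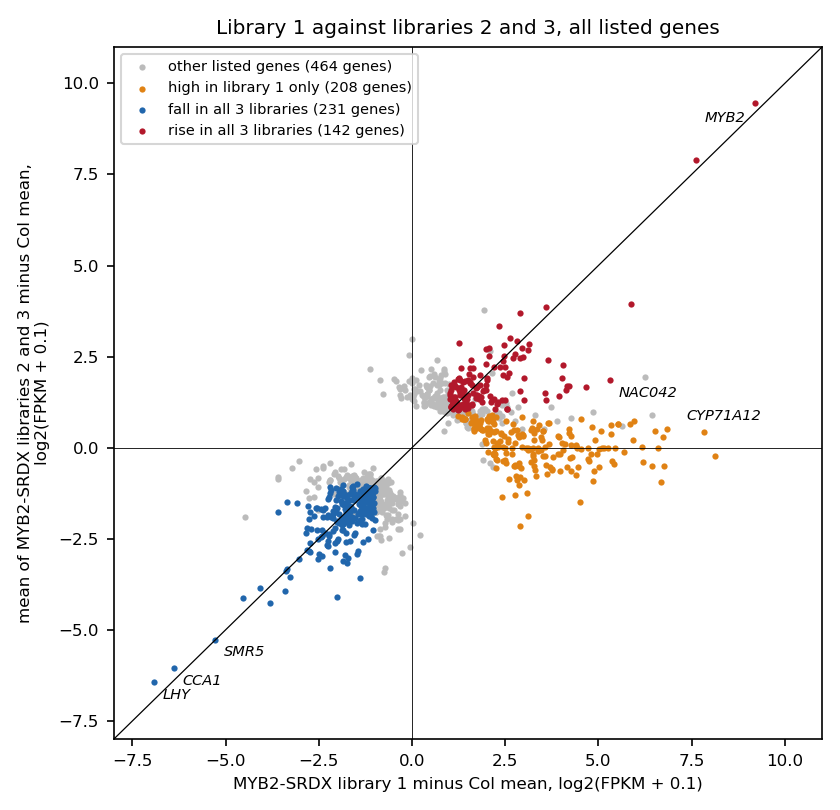
Each point is 1 of the 1045 listed genes, placed by its log2(FPKM + 0.1) difference from the Col mean in MYB2-SRDX library 1 (x axis) and on average in libraries 2 and 3 (y axis), coloured by class, with the diagonal marking equal differences. The 231 falls in all 3 libraries lie at the lower left and the 142 rises at the upper right. Some rises, such as NAC042, lie well to the right of the diagonal. The 208 genes high in library 1 only spread to the right near 0 on the y axis.

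The transgene was plain in each library. MYB2 (AT2G47190) measured 445, 538 and 533 FPKM in the 3 MYB2-SRDX libraries, against 1.01, 0.48 and 0.59 FPKM in the 3 Col libraries. The groups were far apart, with library 1 a little below the other 2. The difference was 9.37 on the log2 scale (SE 0.27, adjusted p = 1.14e-05 by limma with Benjamini-Hochberg adjustment). Reads of the fusion and of the native gene were not separated in these values. The labelled tissue could be checked only on genes that the authors had called. No listed gene came from the lists of endodermis and suberin or of xylem genes, and 1 of 27 root hair genes was listed. The flower gene AP3 was listed at no more than 0.7 FPKM in any library.

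Very deep falls were found in the dawn part of the circadian clock. Clock genes change over the day, and no hour of harvest entered the comparison, so an effect of harvest time was not tested. LHY and CCA1, MYB-like repressors that peak at dawn and hold evening genes down, had the 2 largest falls of all listed genes on the log2(FPKM + 0.1) scale. LHY (AT1G01060) measured 0.4, 0.7 and 0.51 FPKM in MYB2-SRDX and 63.1, 62.3 and 56 FPKM in Col. CCA1 (AT2G46830) measured 0.28, 0.38 and 0.38 FPKM in MYB2-SRDX and 29, 32.7 and 33.5 FPKM in Col. Every MYB2-SRDX library was below 1 FPKM in both genes and every Col library was at or above 29, with little spread inside either group. LHY was 96.7-fold lower (log2 difference -6.60, SE 0.22) and CCA1 71.6-fold lower (log2 difference -6.16, SE 0.19), with limma adjusted p (Benjamini-Hochberg) of 1.56e-05 and 1.41e-05.

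Of 15 genes on a dawn clock list, 12 could be matched to a locus, 9 were listed, 8 fell in all 3 libraries and the ninth, PRR9, passed limma. The list's median log2 difference was -2.81, beside 0.61 over all listed genes, and the same 8 of 9 count came out without library 1. Over all listed genes 22.1% fell in all 3 libraries and 32.8% without library 1. RVE8, a MYB-like activator of evening genes, measured 3.52, 3.08 and 3.27 FPKM in MYB2-SRDX and 22.7, 23.8 and 25.4 FPKM in Col. LNK2, a coactivator that works with RVE8, measured 1.01, 1.36 and 1.37 FPKM in MYB2-SRDX and 19.6, 28.8 and 29.5 FPKM in Col. In both genes the 3 MYB2-SRDX libraries lay close together and far under Col. RVE1, which links the clock to auxin synthesis, measured 5.48, 6.39 and 7.69 FPKM in MYB2-SRDX and 16.7, 21.3 and 24.2 FPKM in Col. LNK1 fell to 2.33, 3.2 and 2.47 FPKM in MYB2-SRDX, against 8.73, 7.1 and 7.67 FPKM in Col. The groups did not overlap in either gene. LNK3 and LNK4, weakly expressed relatives, averaged 0.22 ± 0.0557 and 0.647 ± 0.17 FPKM in MYB2-SRDX, against 2.14 ± 0.325 and 3.85 ± 0.326 FPKM in Col (SD, n = 3 each). PRR9, a morning repressor of LHY and CCA1, measured 0.26, 0.45 and 0.3 FPKM in MYB2-SRDX and 0.92, 0.94 and 0.91 FPKM in Col, below Col in each library but not by 2-fold in library 2 (log2 difference -1.25, adjusted p = 0.0129, limma with Benjamini-Hochberg adjustment).

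Of 14 day and evening clock genes, only ELF4, a member of the evening complex, was listed, and it rose. ELF4 measured 244, 215 and 216 FPKM in MYB2-SRDX and 83.8, 79 and 125 FPKM in Col, a 2.39-fold rise (adjusted p = 0.00422, limma with Benjamini-Hochberg adjustment). The lowest MYB2-SRDX library was well above the highest Col library, which was replicate 3. On a list of 24 clock output and light genes 10 were listed. Of these 2 rose in all 3 libraries (beside 13.6% of all listed genes) and 5 fell (beside 22.1%). The rises were COR27, a clock repressor expressed in the evening, and JMJD5, an evening-phased protein of the histone demethylase family. COR27 measured 12, 11.8 and 12.4 FPKM in MYB2-SRDX and 3.73, 4.56 and 7.89 FPKM in Col. JMJD5 measured 41.9, 42.8 and 42.2 FPKM in MYB2-SRDX and 15, 17.5 and 28.1 FPKM in Col. In both genes the MYB2-SRDX libraries were almost equal and Col replicate 3 came nearest to them.

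The falls among the clock outputs were CDF and B-box factors. CDF3, a Dof factor of the flowering pathway, measured 3.99, 3.57 and 3.08 FPKM in MYB2-SRDX and 12.7, 14.2 and 15.1 FPKM in Col. BBX19, a B-box protein, measured 1.65, 1.96 and 2.46 FPKM in MYB2-SRDX and 7.05, 7.03 and 7.16 FPKM in Col. No library of one group reached the other in either gene. CDF1, BBX28 and BBX29 were weaker and fell too, with group means of 0.267 ± 0.0907, 0.863 ± 0.551 and 0.43 ± 0.185 FPKM in MYB2-SRDX and 1.22 ± 0.0643, 3.68 ± 0.158 and 1.75 ± 0.496 FPKM in Col (SD, n = 3 each). PIF7, a light-signalling factor of the bHLH family that was picked after its values were seen, rose to 0.33, 1.13 and 1.29 FPKM in MYB2-SRDX, against 0.07, 0.07 and 0.1 FPKM in Col.

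**Figure D2:**
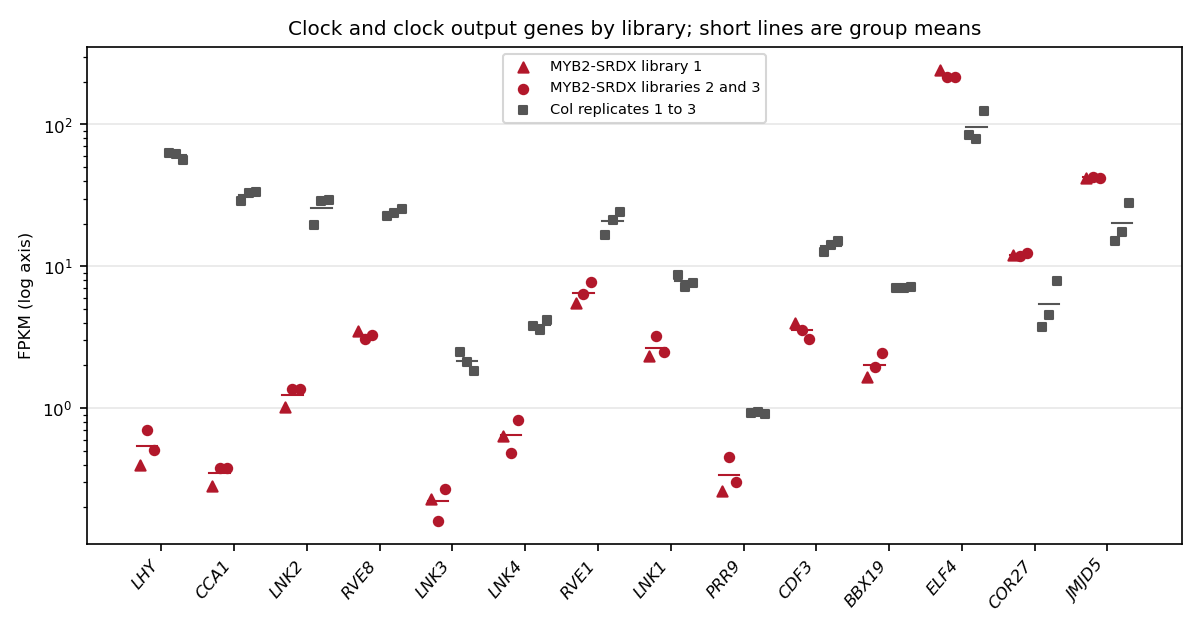
FPKM on a log axis of 14 clock and clock output genes in the 3 MYB2-SRDX libraries (red, library 1 as a triangle) and the 3 Col replicates (grey squares), with short lines at the group means. The 11 genes on the left are lower in each MYB2-SRDX library than in each Col replicate, LHY and CCA1 most of all, and ELF4, COR27 and JMJD5 on the right are higher.

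The promoters of these genes are shown because they carry short elements through which the clock and abscisic acid are known to act. The sequences are the 250 bases before the annotated start in RefSeq's TAIR10.1 annotation, on the strand of the gene. LHY is shown from chr1:37872-38121 (minus strand), CCA1 from chr2:19245341-19245590 (plus strand) and RVE1 from chr5:5692993-5693242 (minus strand), with each G-box, CACGTG, in capitals. The G-box is a site of bHLH and bZIP factors.
LHY: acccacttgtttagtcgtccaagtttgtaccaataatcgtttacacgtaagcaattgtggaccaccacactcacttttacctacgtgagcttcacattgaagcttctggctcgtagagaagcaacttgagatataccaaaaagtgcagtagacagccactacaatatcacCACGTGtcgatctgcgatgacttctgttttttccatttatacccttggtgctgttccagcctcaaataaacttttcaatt
CCA1: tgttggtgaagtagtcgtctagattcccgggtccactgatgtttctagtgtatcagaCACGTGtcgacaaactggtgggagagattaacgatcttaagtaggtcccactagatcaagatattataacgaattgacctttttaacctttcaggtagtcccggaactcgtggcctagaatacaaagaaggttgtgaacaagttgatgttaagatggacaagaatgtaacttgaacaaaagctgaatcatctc
RVE1: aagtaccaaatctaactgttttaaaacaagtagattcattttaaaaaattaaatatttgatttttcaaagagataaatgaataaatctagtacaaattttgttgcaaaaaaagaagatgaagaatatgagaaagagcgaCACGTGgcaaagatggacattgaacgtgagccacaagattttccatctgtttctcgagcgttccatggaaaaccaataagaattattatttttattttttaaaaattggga
In all 3 promoters the G-box overlaps a match to the abscisic acid element, ACGTGTC on either strand.

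The evening element, AAAATATCT, is the site at which LHY, CCA1 and RVE8 bind evening genes. It is in capitals, on either strand, in 2 genes that rose. MT2A, a metallothionein, is shown from chr3:2890575-2890824 (minus strand) and MEE14 from chr2:6922162-6922411 (minus strand).
MT2A: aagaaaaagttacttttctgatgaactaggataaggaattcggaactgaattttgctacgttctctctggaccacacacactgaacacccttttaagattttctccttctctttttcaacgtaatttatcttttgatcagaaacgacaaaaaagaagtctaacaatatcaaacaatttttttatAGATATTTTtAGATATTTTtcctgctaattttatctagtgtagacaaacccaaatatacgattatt
MEE14: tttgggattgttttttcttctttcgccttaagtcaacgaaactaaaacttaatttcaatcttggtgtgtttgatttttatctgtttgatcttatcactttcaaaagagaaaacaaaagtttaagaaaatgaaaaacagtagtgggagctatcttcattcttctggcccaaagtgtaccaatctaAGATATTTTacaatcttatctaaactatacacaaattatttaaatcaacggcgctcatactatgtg
MT2A measured 202, 152 and 175 FPKM in MYB2-SRDX and 45.2, 55 and 86.8 FPKM in Col. MEE14, picked for its motif after its values were seen, measured 65.8, 91.5 and 78.4 FPKM in MYB2-SRDX and 23.7, 31.1 and 44.2 FPKM in Col. As in ELF4, all MYB2-SRDX libraries were above all Col libraries and Col replicate 3 was the nearest. The ELF4 promoter itself held no evening element in the window counted below.

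Motifs were counted on both strands in windows from 250 bases before to 50 bases after the start of 27443 protein-coding genes. A G-box stood in 17% of the 230 falls with a window, against 7.68% of all windows, and in 2.84% of the 141 rises. Of the 9 listed dawn clock genes 8 held one, all but LNK4, and in RVE8 and LNK2 it lay after the start. The abscisic acid element stood in 12.2% of the falls and 2.13% of the rises, against 4.33% of all windows. A G-box that overlaps it stood in 8.7% of the falls and 2.45% of all windows. The evening element stood in 7.8% of the rises (11 genes) and 1.3% of the falls (3 genes), against 2.82% of all windows. Over all listed genes the G-box stood in 8.83% of windows and the evening element in 4.61%. The abscisic acid element stood in 6.33% of the windows of listed genes and its overlap with a G-box in 3.65%. Without library 1 the G-box stood in 15.5% of the falls and the evening element in 8.23% of the rises.

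The MYB site TAACTG stood in 6.38% of the rises and 7.83% of the falls, against 9.34% of all windows. Another MYB site, CTAACCA, stood in 3.55% of the rises and 3.04% of the falls, against 3.78% of all windows. A further clock site, AAAAATCT, stood in 5.67% of the rises and 6.09% of the falls, against 7.88% of all windows, and in 8.23% of the rises without library 1. Over all listed genes TAACTG stood in 7.2% of windows, CTAACCA in 3.93% and AAAAATCT in 6.33%. These are counts of letters, with no measurement of binding.

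**Figure D3:**
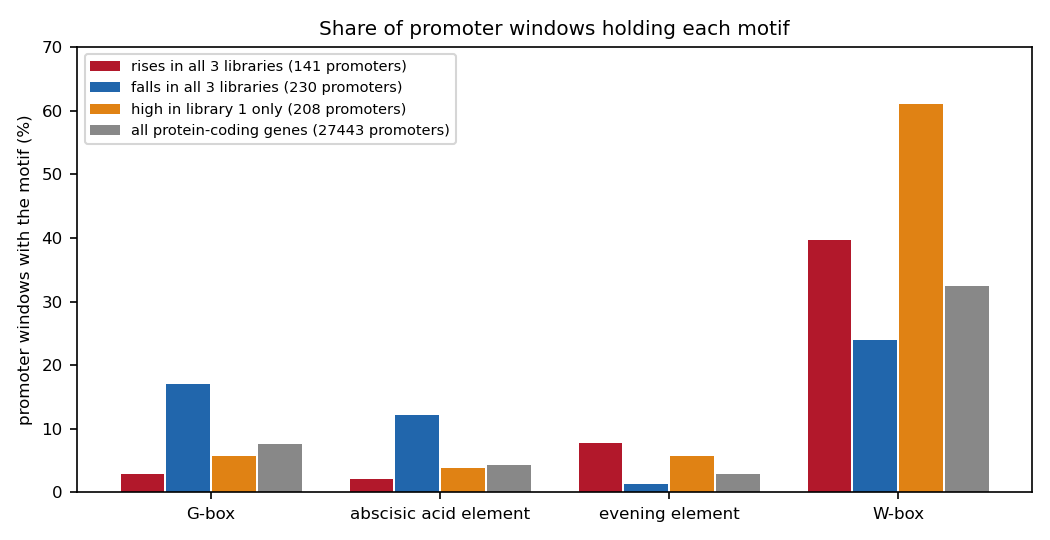
Share of promoter windows (percent, both strands) that hold the G-box, the abscisic acid element, the evening element or the W-box among rises in all 3 libraries (red), falls in all 3 libraries (blue), genes high in library 1 only (orange) and all protein-coding genes (grey). The G-box bar is highest for the falls at 17% and the W-box bar is highest for genes high in library 1 only at 61.1%.

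Most of the listed genes of abscisic acid and dehydration were lower. Of 29 list members 6 were listed, 3 fell in all 3 libraries and 5 passed limma as lower, with a median log2 difference of -1.18. Over all listed genes 22.1% fell in all 3 libraries and 39.4% passed limma as lower. KIN2, a cold- and abscisic acid-induced protein, was the most abundant and measured 71, 52.7 and 58.4 FPKM in MYB2-SRDX and 199.6, 205 and 173 FPKM in Col. LEA4-5, a protective protein of drying tissue, measured 1.12, 0.37 and 0.32 FPKM in MYB2-SRDX and 3.38, 2.55 and 4.08 FPKM in Col. LTI65, also known as RD29B, was close to the floor at 0.57, 0.52 and 0.46 FPKM in MYB2-SRDX and 0.95, 1.12 and 1.8 FPKM in Col. KIN2 and LEA4-5 were separated by wide gaps and LTI65 by a narrow one.

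CYP707A3, which degrades abscisic acid, measured 1.48, 3.32 and 3.35 FPKM in MYB2-SRDX and 5.57, 7.86 and 4.93 FPKM in Col, with library 1 the lowest. AFP1, a negative regulator of the pathway, measured 5.83, 4.88 and 4.01 FPKM in MYB2-SRDX and 8.85, 9.96 and 11.4 FPKM in Col. Neither was 2-fold lower in all 3 libraries, and both passed limma (adjusted p = 0.0314 and 0.00817, Benjamini-Hochberg). HAI3, a phosphatase of the pathway, averaged 0.127 ± 0.095 FPKM in MYB2-SRDX and 0.377 ± 0.085 FPKM in Col (SD, n = 3 each) and did not pass (adjusted p = 0.0575).

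Further genes of the hormone, picked after their values were seen, also fell in all 3 libraries. Genes of the hormone outside the list were not counted, so these picks do not give the direction of the rest. ABA1, the zeaxanthin epoxidase of abscisic acid synthesis, measured 6.33, 6.53 and 6.2 FPKM in MYB2-SRDX and 18.3, 19.9 and 21.9 FPKM in Col. HVA22D, an abscisic acid-induced membrane protein, measured 21.3, 11.7 and 14.2 FPKM in MYB2-SRDX and 44.7, 41.2 and 45.6 FPKM in Col. The ABA1 libraries were almost equal within each group. SNRK2.7, a kinase of the SnRK family, measured 3.49, 7.3 and 6.97 FPKM in MYB2-SRDX, lowest in library 1, and 14.4, 17.5 and 16.8 FPKM in Col.

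Amino acid exporters were among the falls. Of 64 amino acid and sugar exporters on a list 13 were listed, with 7 falls and 1 rise in all 3 libraries, and 8 falls and 2 rises without library 1. Over all listed genes 22.1% fell and 13.6% rose in all 3 libraries, and 32.8% fell and 23.3% rose without library 1. The 7 falls were all UMAMIT proteins, which export amino acids. UMAMIT14, which acts in phloem unloading in roots, measured 0.24, 0.3 and 0.3 FPKM in MYB2-SRDX and 7.27, 6.66 and 3.68 FPKM in Col, a 15.1-fold difference. UMAMIT41 measured 28.9, 24.8 and 21.2 FPKM in MYB2-SRDX and 59.9, 63.3 and 59 FPKM in Col. UMAMIT33 measured 22.8, 24.7 and 22.1 FPKM in MYB2-SRDX and 46.1, 48.1 and 57.2 FPKM in Col. The groups were separate in each of these genes, by about 2-fold in the abundant ones and far more in UMAMIT14. UMAMIT17, UMAMIT26, UMAMIT29 and UMAMIT36 fell as well, with log2 differences of -2.12, -1.22, -1.48 and -1.43 and limma adjusted p (Benjamini-Hochberg) of 0.00184, 0.00292, 0.00214 and 0.0343. UMAMIT36 was near the floor, at 0.03, 0.03 and 0 FPKM in MYB2-SRDX and 0.43, 0.2 and 0.11 FPKM in Col. The size of its log2 difference therefore depends on the added 0.1 FPKM. AAP4, an amino acid importer picked after its values were seen, measured 21.4, 15.2 and 16.4 FPKM in MYB2-SRDX and 49, 53.5 and 54.8 FPKM in Col.

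The sugar exporter SWEET11, which loads sucrose into phloem, went the other way. It measured 58.4, 40.2 and 35.8 FPKM in MYB2-SRDX, highest in library 1, and 7.44, 8.82 and 14.4 FPKM in Col. SWEET12, its partner in loading, measured 17.1, 21.3 and 18.8 FPKM in MYB2-SRDX and 5.79, 8.36 and 12.9 FPKM in Col, passed limma (adjusted p = 0.0198, Benjamini-Hochberg) and missed the 2-fold rule in library 1.

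Some genes on a list of ion transport genes fell too, among them genes of the stele. Of 21 list members 7 were listed, 3 fell in all 3 libraries (beside 22.1% of all listed genes) and 5 passed limma as lower (beside 39.4%), with a median log2 difference of -1.18. SLAH3, an anion channel for nitrate and chloride, measured 57.8, 54.7 and 47.8 FPKM in MYB2-SRDX and 136, 136 and 121 FPKM in Col. SLAH1, its partner in loading chloride into xylem, measured 13.7, 16.6 and 15.7 FPKM in MYB2-SRDX and 48.1, 44.7 and 48.3 FPKM in Col. HKT1, which takes sodium out of the xylem, measured 1.8, 1.66 and 0.83 FPKM in MYB2-SRDX and 4.81, 5.46 and 4.54 FPKM in Col. No MYB2-SRDX library reached a Col library in any of the 3. In bulk roots, fewer cells of a type and less RNA per cell cannot be told apart, so these values do not say whether stele cells or their transcripts were fewer. SKOR, a potassium channel of the same cells, measured 2.78, 6.83 and 6.21 FPKM in MYB2-SRDX, lowest in library 1, and 10.2, 10.01 and 14 FPKM in Col (adjusted p = 0.033, limma with Benjamini-Hochberg adjustment). The potassium channel AKT2 was weakly expressed and was the fifth to pass as lower. The other 2 listed members had higher means in MYB2-SRDX and did not pass, the cation exchanger CHX20 with 0.28, 0.27 and 0.17 FPKM in MYB2-SRDX and 0.05, 0.14 and 0.11 FPKM in Col, and the potassium importer HAK5, which was high in library 1 only and is described below.

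Nutrient genes fell in part. Of 39 iron deficiency genes 6 were listed and 3 fell in all 3 libraries, beside 22.1% of all listed genes. Without library 1 the count was also 3, beside 32.8%. FRO2, the root ferric reductase, measured 2.18, 8.01 and 8.01 FPKM in MYB2-SRDX and 26.5, 26 and 30.5 FPKM in Col. CYP82C4, which makes an iron-mobilising coumarin, measured 1.62, 6.14 and 6.29 FPKM in MYB2-SRDX and 19.5, 15.1 and 18.6 FPKM in Col. NAS1, which makes the metal chelator nicotianamine, measured 56, 70.6 and 62.9 FPKM in MYB2-SRDX and 211, 173 and 162 FPKM in Col. FRO2 and CYP82C4 were lowest in library 1, while the NAS1 libraries were alike. IRT1, the root iron importer, measured 13.4, 85.9 and 93.3 FPKM in MYB2-SRDX and 151, 150.2 and 185 FPKM in Col. Its fall was above 2-fold in library 1 alone, and the limma adjusted p (Benjamini-Hochberg) was 0.0755 with all libraries and 0.00446 without library 1.

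Of 28 phosphate starvation genes 6 were listed. In all 3 libraries 2 fell (beside 22.1% of all listed genes) and 1 rose (beside 13.6%). PHO1;H1, a phosphate exporter, measured 1.92, 3.9 and 2.84 FPKM in MYB2-SRDX and 11.6, 11.1 and 10.1 FPKM in Col. PHT1;2, a phosphate importer with a close paralog, measured 0.15, 0.17 and 0.35 FPKM in MYB2-SRDX and 2.22, 1.42 and 1.13 FPKM in Col. Both fell in all 3 libraries, PHT1;2 from a low level. RNS1, a ribonuclease, rose to 3.02, 1.7 and 1.07 FPKM in MYB2-SRDX, against 0.64, 0.34 and 0.51 FPKM in Col. Of 20 sulfate genes 6 were listed. Of these only SULTR3;5, a root sulfate transporter, changed in all 3 libraries, beside 35.7% of all listed genes. SULTR3;5 measured 3.18, 1.09 and 1.5 FPKM in MYB2-SRDX and 12.2, 13.4 and 10.04 FPKM in Col. GGCT2;1, which acts in glutathione recycling, measured 2.36, 2.17 and 3.7 FPKM in MYB2-SRDX and 1.32, 0.97 and 0.97 FPKM in Col and passed limma as higher (adjusted p = 0.0131, Benjamini-Hochberg). LSU1 and LSU3, small proteins induced by sulfur deficiency, were high in library 1 only. Of 29 nitrate genes 3 were listed and 1 fell in all 3 libraries, beside 22.1% of all listed genes. NRT2:1, the high-affinity importer, fell in all 3 libraries at 0.07, 0.02 and 0.04 FPKM in MYB2-SRDX and 0.27, 1.09 and 0.44 FPKM in Col, which is near the bottom of the scale. ASN1, an asparagine synthetase, was above Col in each library, at 1.86, 1.86 and 2.34 FPKM in MYB2-SRDX and 1.15, 0.98 and 0.84 FPKM in Col, and passed limma (adjusted p = 0.0161, Benjamini-Hochberg).

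**Figure D4:**
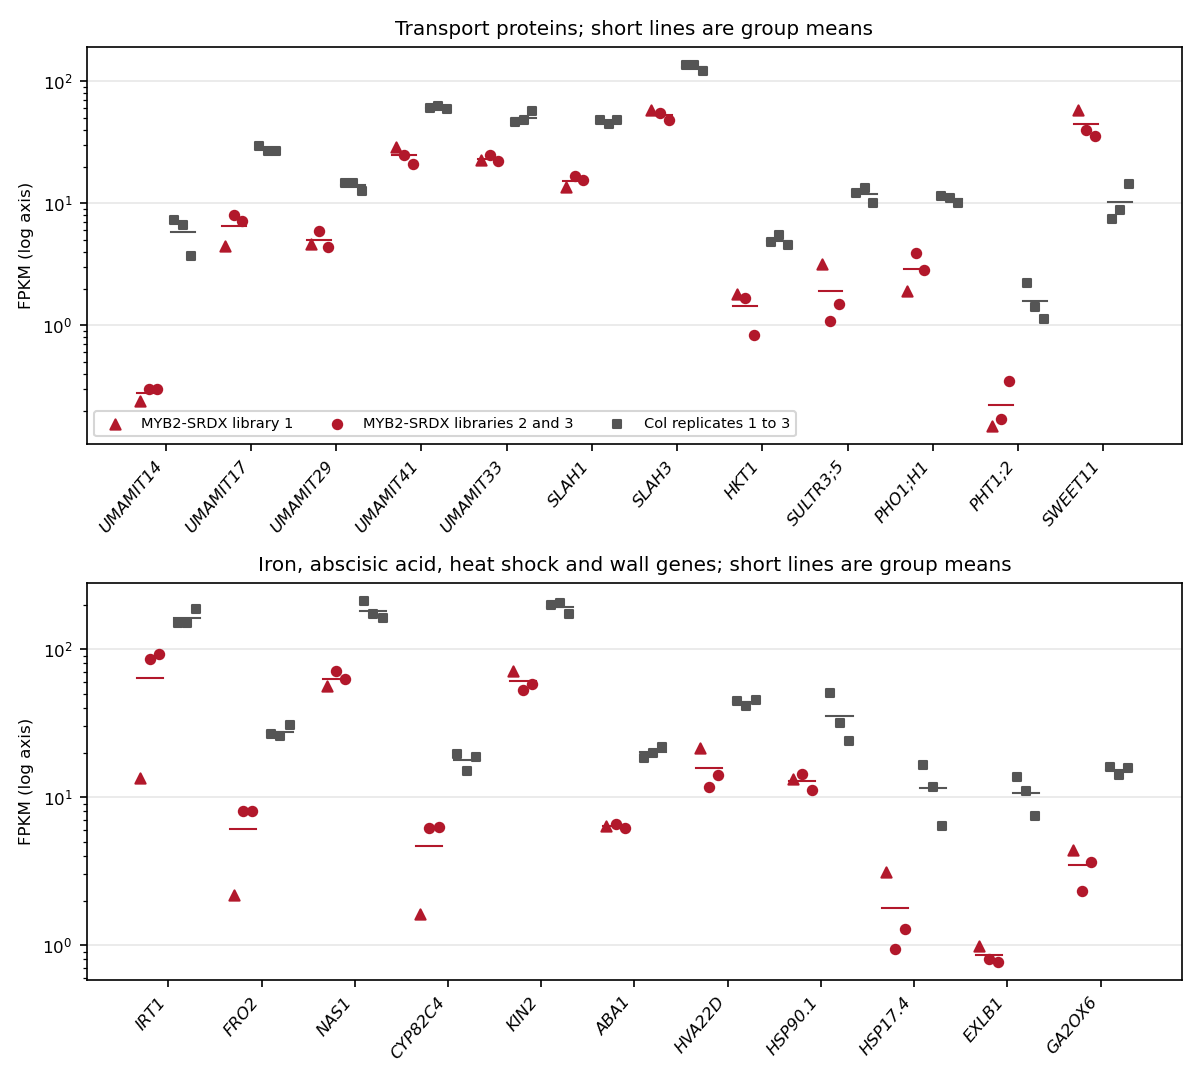
FPKM on a log axis of 12 transport proteins (upper panel) and 11 genes of iron, abscisic acid, heat shock and cell walls (lower panel) in the 3 MYB2-SRDX libraries (red, library 1 as a triangle) and the 3 Col replicates (grey squares), with short lines at the group means. All genes but SWEET11 are lower in each MYB2-SRDX library than in each Col replicate, and in IRT1, FRO2 and CYP82C4 library 1 lies under libraries 2 and 3.

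Several stress and growth genes fell in all 3 libraries. EXLB1, an expansin-like cell wall protein, measured 0.98, 0.81 and 0.77 FPKM in MYB2-SRDX and 13.7, 11 and 7.49 FPKM in Col. GA2OX6, which inactivates gibberellin, measured 4.39, 2.33 and 3.66 FPKM in MYB2-SRDX and 15.9, 14.1 and 15.7 FPKM in Col. YUC9, an enzyme of auxin synthesis, measured 3.35, 2.75 and 2.99 FPKM in MYB2-SRDX and 10.5, 8.44 and 7.5 FPKM in Col. The groups were separate in each. Of 28 lateral root genes 2 were listed and both fell, beside 22.1% of all listed genes. LBD14, a LATERAL ORGAN BOUNDARIES DOMAIN factor, measured 1.94, 1.42 and 1.43 FPKM in MYB2-SRDX and 3.99, 5.81 and 4.99 FPKM in Col. GATA23, which marks founder cells, measured 0.44, 0.22 and 0.37 FPKM in MYB2-SRDX and 0.88, 1.09 and 1.38 FPKM in Col. SMR5, a cell cycle inhibitor, was listed at 0 in all 3 MYB2-SRDX libraries and measured 7.35, 2.46 and 2.93 FPKM in Col. Its log2 difference of -5.27 is set by the added 0.1 FPKM. The authors' deposited table gives SMR5 a log2 fold change of -6.98, larger in size than those it gives LHY (-6.78) and CCA1 (-6.60).

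Of 23 heat shock genes 7 were listed, 5 fell in all 3 libraries (beside 22.1% of all listed genes) and all 7 did without library 1 (beside 32.8%). HSP90.1, a heat-induced chaperone, measured 13.2, 14.4 and 11.1 FPKM in MYB2-SRDX and 50.6, 31.5 and 24 FPKM in Col. HSP17.4, a small heat shock protein, measured 3.11, 0.94 and 1.29 FPKM in MYB2-SRDX and 16.4, 11.7 and 6.38 FPKM in Col. ROF2, a cochaperone, measured 2.31, 7.34 and 6.84 FPKM in MYB2-SRDX and 27.6, 19.1 and 15.9 FPKM in Col. In these 3 genes Col replicate 1 was the highest and Col replicate 3 the lowest, so the size of the fall depends on the Col library it is set against. Summed over the 7 genes, the level was 76.5, 64.0 and 51.2 FPKM in MYB2-SRDX and 248, 152 and 105 FPKM in Col.

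Other hormone and cold genes changed in both directions. JAZ10, a repressor of jasmonate signalling, measured 0.59, 0.52 and 0.42 FPKM in MYB2-SRDX and 2.8, 2.62 and 1.08 FPKM in Col. It was the only 1 of 3 listed jasmonate genes to fall in all 3 libraries, beside 22.1% of all listed genes. ACS11, an ethylene synthesis enzyme, rose to 1.79, 2.15 and 2.34 FPKM in MYB2-SRDX, against 0.47, 0.28 and 0.39 FPKM in Col. CBF2, a cold response factor, measured 0.34, 0.29 and 0.29 FPKM in MYB2-SRDX and 1.57, 1.4 and 1.11 FPKM in Col. JAZ10, ACS11 and CBF2 had separate groups at low levels. Of 20 cold genes 6 were listed. CBF2 and LTP3 fell in all 3 libraries (beside 22.1% of all listed genes) and none rose. Another 2 were high in library 1 only (beside 19.9%), and DREB2A rose without library 1 (beside 23.3%). RHL41, high in library 1 only by that rule, measured 36.6, 15.98 and 16.89 FPKM in MYB2-SRDX and 8.91, 9.3 and 13.19 FPKM in Col. It passed limma as higher (adjusted p = 0.0425, Benjamini-Hochberg). Of 33 cytokinin genes only CKX1, which degrades cytokinin, was listed, at 0.43, 1.11 and 1.44 FPKM in MYB2-SRDX and 2.28, 2.55 and 1.73 FPKM in Col (adjusted p = 0.0545, limma with Benjamini-Hochberg adjustment). None of the hypoxia, flavonoid or peptide signal genes on the lists was listed by the authors.

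Other large falls ranked by size among genes of at least 10 FPKM were QQS, ATGSTF13, ATSBT5.2 and scpl31. QQS, an orphan gene that acts on starch and protein content, measured 1.71, 1.72 and 2.05 FPKM in MYB2-SRDX and 9.94, 11.4 and 15.3 FPKM in Col. ATGSTF13, a glutathione transferase, measured 2.41, 2.51 and 2.31 FPKM in MYB2-SRDX and 16.8, 14.7 and 11.8 FPKM in Col. ATSBT5.2, a subtilisin-like protease, measured 3.56, 5.61 and 4.64 FPKM in MYB2-SRDX and 26, 26.4 and 26.7 FPKM in Col. The groups were separate in all 3. The carboxypeptidase-like gene scpl31 measured 1.47, 2.06 and 2.66 FPKM in MYB2-SRDX and 11.8, 12 and 9.54 FPKM in Col.

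Among transcription factors the authors' annotation marked 89 listed genes, of which 13 rose (14.6%) and 25 fell (28.1%) in all 3 libraries. These shares are near the 13.6% and 22.1% of all listed genes. The MYB family had 18 listed members, with the falls LHY, CCA1, RVE8, RVE1 and MYB112 and the rises MYB2 itself and MYB55. The MADS family had 4 falls and 1 rise among 9 listed. AGL21, a root factor that acts in lateral root growth, measured 4.58, 10.3 and 7.89 FPKM in MYB2-SRDX and 19.2, 21.5 and 23.9 FPKM in Col. AGL12, which acts in root meristem proliferation, measured 8.14, 7.74 and 7.69 FPKM in MYB2-SRDX and 19, 17.7 and 17.82 FPKM in Col. Both were picked after their values were seen, and their groups did not overlap. NAC6, a senescence factor also known as ORE1, measured 0.83, 0.47 and 0.73 FPKM in MYB2-SRDX and 3.21, 3.86 and 6.63 FPKM in Col.

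The rises present in all 3 libraries were fewer than the falls, with a median log2 difference of 1.64, beside -1.66 for the falls. GRP3S and GRP-3, close paralogs that encode glycine-rich wall proteins, were among them. GRP3S measured 166, 329 and 342 FPKM in MYB2-SRDX and 27.6, 34.5 and 37.4 FPKM in Col. GRP-3 measured 76.8, 73.9 and 73.3 FPKM in MYB2-SRDX and 11.3, 14.4 and 16.9 FPKM in Col. Both were far above Col in each library, although reads shared by the pair could have been split between them. UBC12, a ubiquitin-conjugating enzyme, measured 17.3, 30.1 and 27.8 FPKM in MYB2-SRDX and 4.09, 4.42 and 4.42 FPKM in Col (adjusted p = 0.00108, limma with Benjamini-Hochberg adjustment). RAV1, a growth repressor with an AP2 domain, measured 66.7, 99.3 and 78.3 FPKM in MYB2-SRDX and 21.5, 25.6 and 28.1 FPKM in Col. EBP, an ethylene response factor, measured 108, 138 and 154 FPKM in MYB2-SRDX and 43.5, 53.4 and 64.4 FPKM in Col. These 3 had their lowest MYB2-SRDX value in library 1, still above every Col library. An unnamed gene, AT1G27565, picked after its values were seen, measured 19.7, 22.8 and 24.7 FPKM in MYB2-SRDX and was listed at 0 in each Col library.

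Some defence genes rose evenly in all 3 libraries. AZI1, a lipid transfer protein that primes systemic immunity, measured 409, 447 and 504 FPKM in MYB2-SRDX and 139, 143 and 138 FPKM in Col. WRKY51, a regulator of salicylic acid and jasmonate responses, measured 9.12, 6.64 and 6.77 FPKM in MYB2-SRDX and 0.82, 0.91 and 1.21 FPKM in Col. HR4, a homolog of the mildew resistance gene RPW8, measured 10.01, 7.72 and 7.05 FPKM in MYB2-SRDX and 0.96, 1.65 and 1.22 FPKM in Col. The gap between the groups was wider than the range within either group, and the limma adjusted p values (Benjamini-Hochberg) were 6.93e-04, 8.01e-04 and 0.00121. UGT75B1, a glucosyltransferase, measured 31.8, 47.1 and 47.1 FPKM in MYB2-SRDX, lowest in library 1, and 12.9, 13.8 and 17.1 FPKM in Col. GSTU11, a glutathione transferase, rose to 1.8, 1.67 and 3.22 FPKM in MYB2-SRDX, against 0.31, 0.53 and 1.05 FPKM in Col.

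Other rises passed the rule in all 3 libraries but were much higher in library 1. NAC042, a NAC factor that acts on camalexin synthesis, measured 57.4, 5.11 and 5.08 FPKM in MYB2-SRDX and 1.25, 1.28 and 1.51 FPKM in Col. GSTF2, an auxin- and camalexin-binding glutathione transferase, measured 2799, 1449 and 1211 FPKM in MYB2-SRDX and 378, 319.6 and 356 FPKM in Col. IGMT4, an indole glucosinolate methyltransferase, measured 171, 40.4 and 41 FPKM in MYB2-SRDX and 11.2, 14.3 and 18.1 FPKM in Col. Library 1 was the highest in all 3, by about 2-fold in GSTF2 and by far more in the others. Without library 1 the log2 differences were 1.85 for NAC042, 1.92 for GSTF2 and 1.51 for IGMT4, each still past limma (adjusted p = 0.00103, 6.94e-04 and 0.00365, Benjamini-Hochberg). GLP9, a germin-like protein, followed the same course at 219, 36.3 and 40.1 FPKM in MYB2-SRDX and 14, 12.6 and 8.92 FPKM in Col. FMO1, which makes the immune signal N-hydroxypipecolic acid, measured 13.5, 2.31 and 3.16 FPKM in MYB2-SRDX and 1.02, 1.37 and 0.78 FPKM in Col.

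Most listed members of several defence lists were high in library 1 only. All 4 listed camalexin genes of 10, 4 of 5 listed indole glucosinolate genes of 14, 4 of 6 listed glutathione transferases of 35, and 4 of 6 listed WRKY factors of 29 belonged to them. Over all listed genes the class held 19.9%. CYP81F2, which modifies indole glucosinolates, measured 99, 4.83 and 5.35 FPKM in MYB2-SRDX and 2.18, 4.14 and 4.25 FPKM in Col. GSTU12 measured 32.6, 0.29 and 0.19 FPKM in MYB2-SRDX and 0.19, 0.29 and 0.24 FPKM in Col. In both genes libraries 2 and 3 fell within or next to the Col range while library 1 was far outside it. Neither passed limma (adjusted p = 0.166 and 0.296, Benjamini-Hochberg). Summed over the 4 listed camalexin genes, the level was 463, 21.96 and 20.4 FPKM in MYB2-SRDX and 11.4, 12.3 and 13.7 FPKM in Col.

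Of the 4 listed camalexin genes only PAD3, the last enzyme of the pathway, passed limma, both with and without library 1. It measured 31.9, 19.5 and 17.9 FPKM in MYB2-SRDX and 10.6, 9.75 and 10.9 FPKM in Col (log2 difference 1.096 with all libraries and 0.84 without library 1, adjusted p = 0.0118 and 0.00229, limma with Benjamini-Hochberg adjustment). Indole glucosinolate genes had most of their excess in library 1. MYB51, a regulator of indole glucosinolates, measured 36.4, 10.6 and 12.2 FPKM in MYB2-SRDX and 8.94, 8.65 and 8.68 FPKM in Col. IGMT2 measured 184, 21.2 and 23.3 FPKM in MYB2-SRDX and 17.3, 17 and 14.3 FPKM in Col. PXMT1, a methyltransferase, measured 70.8, 2.13 and 3.61 FPKM in MYB2-SRDX and 1.81, 1.89 and 2.36 FPKM in Col. In MYB51 and IGMT2 libraries 2 and 3 were a little above every Col library, and both genes passed limma without library 1 (log2 differences 0.38 and 0.46, adjusted p = 0.024 and 0.024, Benjamini-Hochberg). In PXMT1 library 2 lay within the Col range and library 3 above it, and the gene did not pass without library 1 (adjusted p = 0.198). IGMT3 passed limma with and without library 1 (log2 differences 1.31 and 0.89, adjusted p = 0.0223 and 0.00407). GSTF3, GSTF6 and GSTF7, CYP71A12 and CYP71A13, and the IGMT genes have near copies, so reads could be split among them.

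The same split held for HAK5, the high-affinity potassium importer, which measured 15, 0.37 and 0.24 FPKM in MYB2-SRDX and 0.32, 0.16 and 0.03 FPKM in Col. Some markers of other tissues differed between library 1 and the other libraries. Of 22 seed genes 5 were listed, and CRA1, OLEO1, OLEO2 and PER1 were listed at 0 in libraries 2 and 3 and at 2.04, 0.85, 1.09 and 1.67 FPKM in library 1. The fifth, OLEO4, was lowest in library 1, at 0.92, 1.68 and 1.85 FPKM in MYB2-SRDX and 0.27, 0.65 and 0.49 FPKM in Col, and passed limma as higher (adjusted p = 0.0218, Benjamini-Hochberg). The 5 seed genes summed to 6.57, 1.68 and 1.85 FPKM in MYB2-SRDX, all of it OLEO4 in libraries 2 and 3, and to between 0.320 and 0.740 FPKM in Col. Of the green tissue list 5 genes were listed, summing to 46.2, 19.2 and 18.3 FPKM in MYB2-SRDX and to between 50.6 and 52.9 FPKM in Col. RBCS1B, a Rubisco subunit, measured 15.7, 1.02 and 0.46 FPKM in MYB2-SRDX and 2.72, 2.28 and 0.86 FPKM in Col. LHCB2.1, a light-harvesting protein, fell to 1.13, 0.17 and 0.21 FPKM in MYB2-SRDX, against 5.28, 5.23 and 4.11 FPKM in Col. The part of these tissues in the library 1 class was not tested.

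The W-box, TTGACC or TTGACT on either strand, is the site of WRKY factors and is shown in capitals in the 250 bases before the start of 2 genes of this class. CYP81F2 is shown from chr5:23187590-23187839 (plus strand) and GSTU12 from chr1:26335631-26335880 (minus strand), both from RefSeq's TAIR10.1 build.
CYP81F2: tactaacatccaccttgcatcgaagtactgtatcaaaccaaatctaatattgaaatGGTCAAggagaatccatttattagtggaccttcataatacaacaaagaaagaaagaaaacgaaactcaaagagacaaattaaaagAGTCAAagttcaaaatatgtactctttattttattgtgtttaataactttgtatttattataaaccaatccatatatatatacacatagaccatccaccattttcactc
GSTU12: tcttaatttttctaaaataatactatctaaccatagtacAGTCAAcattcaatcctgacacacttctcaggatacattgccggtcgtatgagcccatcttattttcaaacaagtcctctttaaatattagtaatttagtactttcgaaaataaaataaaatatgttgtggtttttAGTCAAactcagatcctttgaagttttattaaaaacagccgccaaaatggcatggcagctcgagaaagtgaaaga
A W-box stood in 61.1% of the 208 windows of genes high in library 1 only and in 32.4% of all windows. Among genes changed in all 3 libraries it stood in 39.7% of the rises and 23.9% of the falls. Over all listed genes the share was 39%, close to that of the rises. The G-box stood in 5.77% of the windows of the library 1 class and the evening element in 5.77%.

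**Figure D5:**
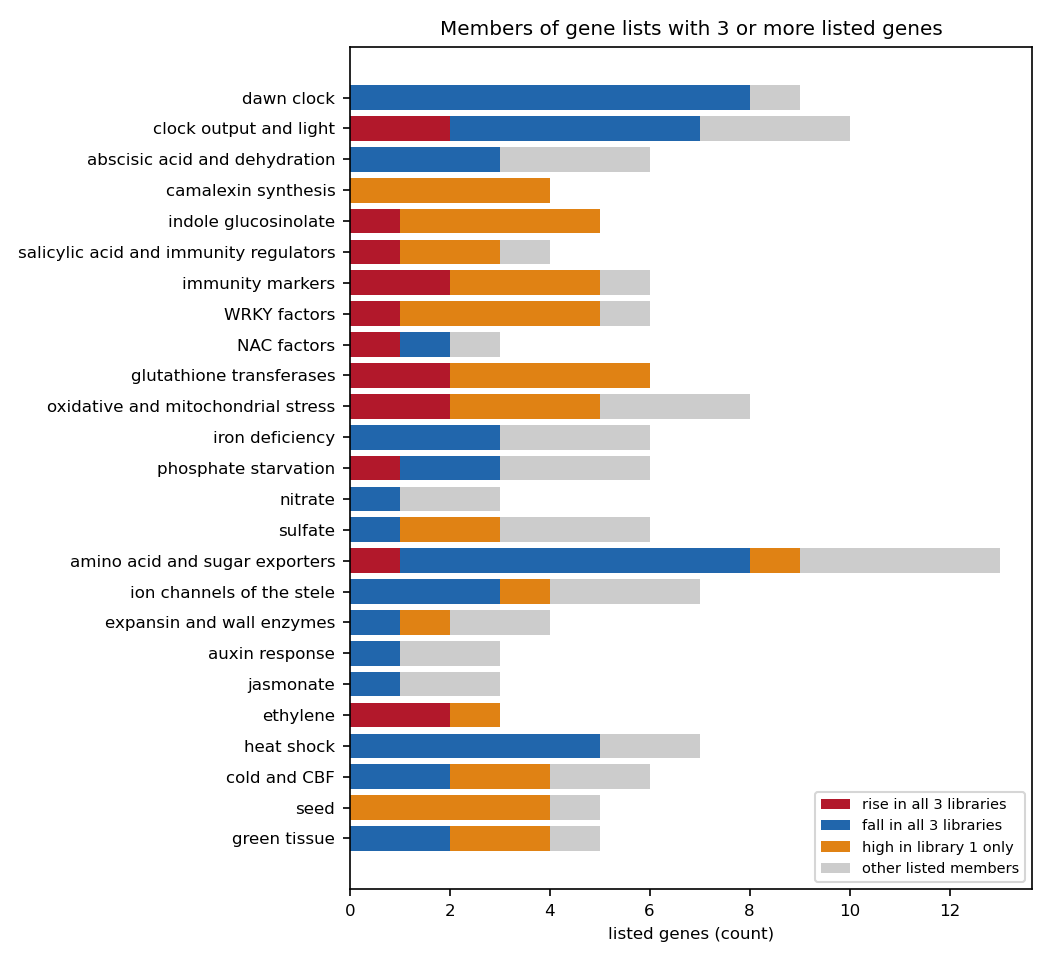
Number of listed genes per gene list, for lists with 3 or more listed members, split into rises in all 3 libraries (red), falls in all 3 libraries (blue), genes high in MYB2-SRDX library 1 only (orange) and other listed genes (grey). Falls fill most of the dawn clock (8 of 9) and heat shock (5 of 7) bars, and the library 1 class fills the camalexin bar (4 of 4).

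For some of these genes the authors' table of MYB2-OE also gave values, with the same Col libraries, whose values were identical in all 299 genes of both tables. The 2 comparisons share Col, so their values are set side by side without a test. LNK2 averaged 1.25 ± 0.205 FPKM in MYB2-SRDX, 70.2 ± 5.28 FPKM in MYB2-OE and 25.9 ± 5.55 FPKM in Col (SD, n = 3 each). RVE8 averaged 3.29 ± 0.221 FPKM in MYB2-SRDX, 48.6 ± 2.26 FPKM in MYB2-OE and 24 ± 1.33 FPKM in Col. ELF4 averaged 225 ± 16.4 FPKM in MYB2-SRDX, 38.5 ± 4.85 FPKM in MYB2-OE and 96 ± 25.5 FPKM in Col. In these genes the 2 lines lay on opposite sides of Col. PHO1;H1, GSTF2 and UBC12 also lay on opposite sides, with 2.89 ± 0.991, 1820 ± 856 and 25.1 ± 6.82 FPKM in MYB2-SRDX, 24 ± 1.84, 74.5 ± 12.8 and 0.63 ± 0.722 FPKM in MYB2-OE, and 10.9 ± 0.759, 351 ± 29.4 and 4.31 ± 0.191 FPKM in Col. SLAH1, UMAMIT14 and HOL2, a methyltransferase of glucosinolate breakdown products, lay on the same side. SLAH1 averaged 15.3 ± 1.51 FPKM in MYB2-SRDX, 17.2 ± 10.8 FPKM in MYB2-OE and 47 ± 1.99 FPKM in Col. UMAMIT14 averaged 0.28 ± 0.0346 FPKM in MYB2-SRDX, 2.23 ± 1.94 FPKM in MYB2-OE and 5.87 ± 1.92 FPKM in Col. Its MYB2-OE libraries measured 1.24, 4.47 and 0.98 FPKM, and the highest of them lay inside the Col range. HOL2 averaged 3.03 ± 0.346 FPKM in MYB2-SRDX, 68.8 ± 15 FPKM in MYB2-OE and 0.823 ± 0.342 FPKM in Col. Of the genes set side by side here, only ELF4, SLAH1 and HOL2 also had LBD29-OE library values. They averaged 35.8 ± 4.89, 16 ± 4 and 0.303 ± 0.17 FPKM in LBD29-OE, each below the Col mean. ELF4 and SLAH1 were thus near their MYB2-OE means, and HOL2 was not. LHY and CCA1 had no value for MYB2-OE in these tables.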

How the data were processed

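Per the labels' protocols, root RNA was copied into random-primed cDNA and sequenced on an Illumina machine. The authors deposited FPKM per library with their own log2 fold change and Q-value, per the file headers. Each table lists called genes only. The submitters' processing notes give the TAIR10 build. Not given in the sources used here are the aligner, the counting tool, its handling of strand and shared reads, and the authors' test.

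The MYB2-SRDX column names do not match any sample title, so the 3 columns were placed in the group as a whole and are called by their last digit. From the FPKM, limma 3.58.1 in R 4.3.3 was fitted to log2(FPKM + 0.1) of the 1045 listed genes (2 groups, eBayes with a mean-variance trend), with p-values adjusted by Benjamini-Hochberg over all of them and checked on simulated data. A design for a full table had been planned. No covariate was used. Depth is unknown, and no interval is given. Symbols came from RefSeq, and 996 of 1052 symbols on 39 gene lists matched a locus, of which 152 were listed. Promoters came from the RefSeq TAIR10.1 genome and annotation. One promoter sequence is not reported here. The members, the lists and the motifs were chosen with earlier results of these data known. Named genes (134) were MYB2, the 12 largest rises and falls with a symbol that passed the rule for all 3 libraries at 10 FPKM or more, the 8 largest of those high in 1 library only, and up to 5 per list. Other genes in the text fall outside this rule. Some are marked as picked after their values were seen. The rest, such as RVE1, LNK1, COR27, JMJD5 and HSP90.1, are unmarked further members of the gene or marker lists. MYB112 and MYB55 are unmarked members of the MYB family.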

Additional observations from a re-analysis of the deposited data

How the results depend on the processing

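The counts of genes changed in all 3 MYB2-SRDX libraries depended on the pseudocount and on the fold asked for. With 1 FPKM added in place of 0.1, 67 genes rose and 110 fell. With 1.5-fold in each library 278 rose and 408 fell, and with each library outside the Col range whatever the fold 345 rose and 437 fell. With genes of at least 1 FPKM only, 116 rose and 178 fell. Leaving out 1 library at a time gave between 124 and 244 rises, the most without MYB2-SRDX library 1, and between 227 and 343 falls. limma called between 141 and 328 genes higher and between 250 and 434 lower when 1 library was left out, the fewest without Col replicate 2 (141 and 250), with 170 higher without Col replicate 1. Its other settings kept both counts within 1.5 times. Of the 134 named genes, 9 changed sign when a library was left out. Their log2 differences ranged from -0.0053 to 3.404 for GSTU12, -0.17 to 2.52 for CYP82C2, -0.16 to 1.88 for CYP71A13, -0.0512 to 1.73 for WAKL10, -0.18 to 2.75 for WRKY41, -0.16 to 1.91 for PER1, -0.39 to 1.396 for OLEO2, -1.23 to 1.18 for RBCS1B and -1.29 to 0.82 for RBCS2B, the lowest without MYB2-SRDX library 1 in each. Counts per list and motif shares without library 1 were added after seeing the data. No paired analysis was possible because the MYB2-SRDX columns carry no sample title and hence no replicate number of the labels. Genes outside the table, the depth and the share of reads from near copies limit what these values show.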
